A study of Saccharomyces cerevisiae with 11 samples.

Results

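The genes that make, regulate and break down glycogen, the branched glucose store of the yeast *Saccharomyces cerevisiae*, were followed across 11 RNA-seq libraries. These 10 genes were picked by name, for their known place in glycogen metabolism, out of 7126 genes in the table. Earlier results of these data were known when they were chosen. They were *GLG1* and *GLG2* (the self-glucosylating primers, or glycogenins), *GSY1* and *GSY2* (glycogen synthases), *GLC3* (branching enzyme), *GPH1* (glycogen phosphorylase), *GDB1* (debranching enzyme), and *GAC1*, *PIG1* and *PIG2* (targeting subunits of the Glc7 phosphatase). All 10 passed the filter on low counts, with 199 to 39726 reads per gene and library.

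The cells were W303 yeast that carried a galactose-induced gene for a huntingtin exon 1 fragment with a nuclear localization signal and GFP, with a long (Htt103Q) or a short (Htt25Q) run of glutamines, integrated together with *LEU2* in 1 strain for each length. Each strain also held a centromeric *HIS* plasmid, either with *SLX5* or empty (V). Slx5 is a subunit of a SUMO-targeted ubiquitin ligase, an enzyme that marks SUMO-modified proteins with ubiquitin. The groups were Htt103Q [*SLX5*], Htt103Q [V] and Htt25Q [*SLX5*], with 3 libraries each from clones a, b and c, and Htt25Q [V], with 2 libraries from clones a and b. All cultures grew in 2% raffinose at 25 °C and received 2% galactose for 4 h, so every group was measured after induction and none without the fragment. Since each glutamine length is a separate strain, length and strain cannot be told apart.

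Glycogen is started by glycogenin, lengthened by glycogen synthase from UDP-glucose and branched by Glc3. Phosphorylase and the debranching enzyme release its glucose again. Synthase is held back by phosphorylation, by Pho85 with its cyclins among other kinases, and is activated when Glc7 is brought to it by subunits such as Gac1. In yeast, glycogen builds up as sugar becomes limiting or under stress, and many of these genes are known targets of the stress factors Msn2 and Msn4, which bind the stress response element AGGGG.

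The 10 genes differ in whether they carry that element. In the 500 bases before the start codon, AGGGG on either strand (CCCCT when the match is on the other strand) was found in 7 of the 10 genes and at least 2 times in 6 of them. Among 6006 genes of the R64 reference genome, 34.1% held at least 1 match and 8.18% at least 2. No other motif was searched, no match overlapped another, and a match of 5 letters is a description of the sequence only. *GLC3* had 3 matches, *GPH1*, *GSY2*, *GSY1*, *PIG2* and *GLG2* had 2 each, *GDB1* had 1, and *GLG1*, *GAC1* and *PIG1* had none in this window.

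The upstream stretches of a phosphorylase, a branching enzyme and a synthase gene are shown because these genes moved together in the data described next. They run from 20 bases before the farthest match to 20 bases after the nearest one, 5′ to 3′ on the strand of the gene, with the matches in capitals. They come from the S288C reference (RefSeq, R64), which may differ from W303.
GPH1 (chrXVI:860929-861004, plus strand): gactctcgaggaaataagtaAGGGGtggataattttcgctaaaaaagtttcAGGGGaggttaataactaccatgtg
GLC3 (chrV:132726-132931, plus strand): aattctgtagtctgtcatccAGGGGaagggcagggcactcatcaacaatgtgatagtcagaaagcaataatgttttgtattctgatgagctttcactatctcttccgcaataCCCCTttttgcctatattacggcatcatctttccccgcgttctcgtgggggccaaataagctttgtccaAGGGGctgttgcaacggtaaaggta
GSY2 (chrXII:660319-660544, plus strand): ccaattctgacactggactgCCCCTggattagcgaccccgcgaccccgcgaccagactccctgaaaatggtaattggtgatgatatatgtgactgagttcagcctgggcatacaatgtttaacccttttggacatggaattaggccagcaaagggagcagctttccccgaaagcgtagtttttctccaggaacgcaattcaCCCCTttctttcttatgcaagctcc

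For the other 4 genes each match is shown with 10 bases on either side, so that *GLG2*, whose count did not pass the test in any comparison, can be read against the 3 that were lower in Htt103Q [V].
GSY1 (chrVI:176844-176868, minus strand): ggaatctttcAGGGGcacaatttcc
GSY1 (chrVI:176709-176733, minus strand): acaagtaataCCCCTtggaggattt
GDB1 (chrXVI:901842-901866, plus strand): acagcagcaaCCCCTtgaaatggcc
PIG2 (chrIX:270805-270829, plus strand): tcccacgctaAGGGGgatgtcaagg
PIG2 (chrIX:270817-270841, plus strand): ggggatgtcaAGGGGgggactgaag
GLG2 (chrX:156509-156533, minus strand): taaaaagaagAGGGGaagtcgttta
GLG2 (chrX:156220-156244, minus strand): tataaagatgAGGGGagtagatcaa

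**Figure D1:**
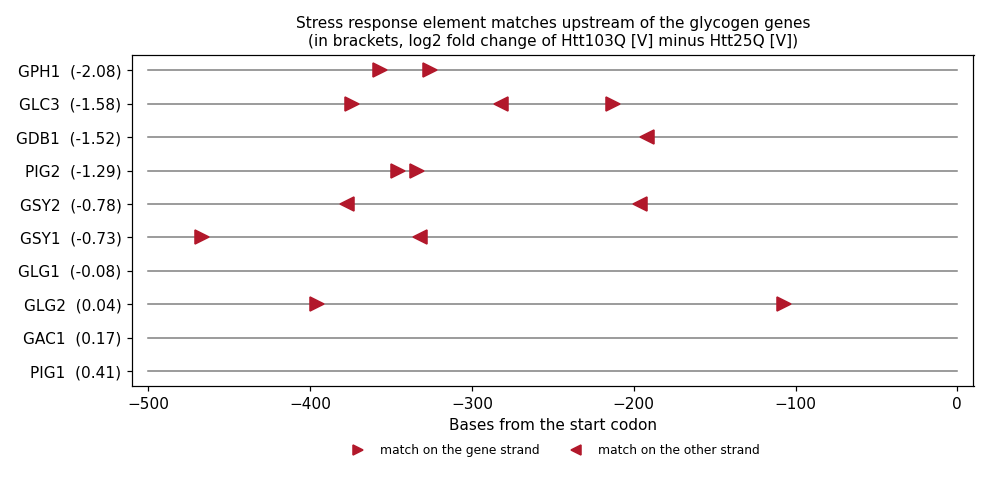
Position of each AGGGG match within 500 bases before the start codon (x axis, bases), 1 line per gene, with the arrowhead pointing right for a match on the strand of the gene and left for the other strand. Genes run from the lowest to the highest log2 fold change of Htt103Q [V] minus Htt25Q [V]. The 6 at the top each hold at least 1 match, and below them only *GLG2* does. Whether the matches have a part in this order was not tested.

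Depth and the plasmid were checked first. Libraries held 19942070 to 29440801 estimated read counts, and 6321 genes were tested. Levels are given as CPM, counts scaled to the library total, after TMM scaling, a correction of that total that sets the bulk of genes level between libraries. *SLX5* itself read 494, 752 and 663 CPM in Htt103Q [*SLX5*] clones a, b and c, against 53.9, 50.1 and 65.2 in Htt103Q [V], and 1216, 1173 and 1147 CPM in Htt25Q [*SLX5*], against 94.4 and 99.6 in Htt25Q [V]. The plasmid thus shows in every library that should carry it, at a lower level in Htt103Q. Ribosomal RNA rows took 1.02 to 2.40% of counts in the 4 clone a libraries and 0.254 to 0.958% in the others.

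The libraries of Htt103Q [V] were spread out, with clone a at 1 end and clone c at the other. Of the 3, clone c had the highest CPM for 9 of the 10 glycogen genes, where it was the highest for 42.7% of all tested genes. Clone a had the lowest CPM for 9 of the 10, where it was the lowest for 39.7% of all tested genes. Clone c was also the highest of the 3 for 70.4% of the genes that were lower in Htt103Q [V] than in Htt25Q [V]. It was the lowest for 67.5% of the genes that were higher, so it lay nearer Htt25Q [V] over the whole table. *GAL1* (galactokinase, induced by galactose) varied alongside, with 1626, 2188 and 3277 CPM in Htt103Q [V] clones a, b and c. It read 2810.05, 4419 and 3904 CPM in Htt103Q [*SLX5*], 8897, 8216 and 8870 CPM in Htt25Q [*SLX5*], and 7226 and 7954 CPM in Htt25Q [V]. Whether this difference in galactose-induced transcription has a part in the values below was not tested.

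**Figure D2:**
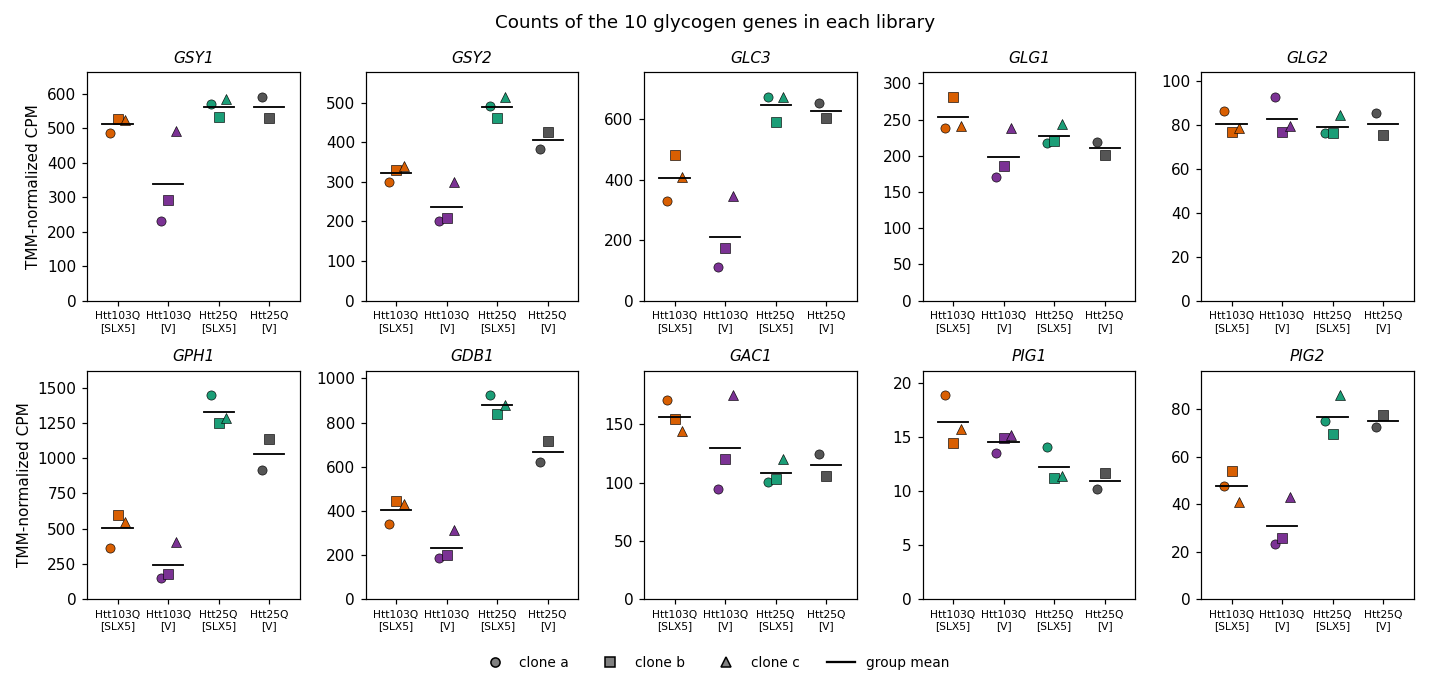
TMM-normalized CPM (y axis, from 0) of the 10 glycogen genes in each library, by group (x axis); circles, squares and triangles are clones a, b and c, and the line is the group mean. *GPH1* lies between 147 and 407 CPM in Htt103Q [V] and between 918 and 1136 CPM in Htt25Q [V], while *GLG2* lies between 75.6 and 93.0 CPM in all 11 libraries.

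Which glycogen genes differed between the expanded and the short fragment was asked first with the empty vector. In Htt103Q [V] against Htt25Q [V], 6 of the 10 genes were lower (*GPH1*, *GLC3*, *GDB1*, *PIG2*, *GSY2* and *GSY1*), 1 was higher (*PIG1*), and 3 (*GLG1*, *GLG2* and *GAC1*) did not pass the test. Called genes have an adjusted p under 0.05 in edgeR's quasi-likelihood test with Benjamini-Hochberg adjustment over the 6321 genes. By that rule 56.8% of all tested genes were called, 29.5% lower and 27.3% higher, so the 7 of 10 called are read against a background where most genes were called. The median log2 fold change of the 10 was -0.75, against -0.02 over all tested genes. With library totals in place of TMM, 56.0% of the called genes were higher, against 48.1% with TMM. Under library totals the 10 genes, with a median of -0.69, still counted 6 lower and 1 higher. A lower count in a bulk culture may be less mRNA in each cell or fewer cells that hold it, and these cannot be told apart.

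Both enzymes of breakdown were lower in every library. *GPH1* (YPR160W, coding region chrXVI:861306-864014, plus strand, 1 exon) had 147, 176 and 407 CPM in Htt103Q [V] clones a, b and c, against 918 and 1136 CPM in Htt25Q [V] clones a and b. The groups did not overlap, with Htt103Q [V] clone c the nearest to the Htt25Q range. Its log2 fold change was -2.08 (SE 0.35, 95% confidence interval -2.83 to -1.32, edgeR adjusted p = 0.000465), which is 0.237 of the Htt25Q [V] level. *GDB1* (YPR184W, chrXVI:902044-906654, plus strand), which removes the branch stubs that phosphorylase leaves, had 186, 202 and 312 CPM in Htt103Q [V], against 622 and 715 CPM in Htt25Q [V]. The groups of this gene did not overlap either, at a log2 fold change of -1.52 (SE 0.19, edgeR adjusted p = 8.64e-05).

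Branching enzyme and the synthases were lower as well, the synthases by less. *GLC3* (YEL011W, chrV:133120-135234, plus strand) had 111, 174 and 344 CPM in Htt103Q [V], against 653 and 603 CPM in Htt25Q [V], with a log2 fold change of -1.58 (SE 0.33, edgeR adjusted p = 0.00189). *GSY2* (YLR258W, chrXII:660716-662833, plus strand), whose product is the main synthase as cells enter stationary phase, had 201, 208 and 299 CPM in Htt103Q [V], against 383 and 426 CPM in Htt25Q [V]. Its log2 fold change was -0.78 (SE 0.14, edgeR adjusted p = 0.000838). *GSY1* (YFR015C, chrVI:174265-176391, minus strand) had 232, 292 and 490 CPM in Htt103Q [V], against 591 and 530 CPM in Htt25Q [V]; clone c of Htt103Q [V] came close to the Htt25Q [V] range without entering it. The log2 fold change of *GSY1* was -0.73 (SE 0.22, edgeR adjusted p = 0.0152). This call was lost without Htt103Q [V] clone b (adjusted p = 0.0554) or without Htt25Q [V] clone a (adjusted p = 0.0867). *GSY1* and *GSY2* share 74.1% of their aligned coding bases, with a longest shared run of 20 bases, and all their deposited counts were whole numbers.

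The primers did not pass the test. *GLG1* (YKR058W, chrXI:552770-554620, plus strand) had 171, 186 and 238 CPM in Htt103Q [V], against 219 and 201 CPM in Htt25Q [V], so that the groups overlapped. Its log2 fold change was -0.08, with a 95% interval of -0.37 to 0.20 (edgeR adjusted p = 0.597). *GLG2* (YJL137C, chrX:154985-156127, minus strand) had 93.0, 76.7 and 79.5 CPM in Htt103Q [V], against 85.7 and 75.6 CPM in Htt25Q [V], with an interval of -0.17 to 0.26 on the log2 scale (edgeR adjusted p = 0.72). The intervals of both genes stay above the value of -0.73 found for *GSY1*, the smallest of the called decreases. The interval of *GSY1* itself, from -1.22 to -0.24, overlapped that of *GLG1*. Whether the primers differ from *GSY1* was not tested.

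Of the 3 phosphatase subunits, *PIG2* was lower, *PIG1* was higher and *GAC1* did not pass the test. Whether *PIG1* and *GAC1* differ from each other was not tested. *PIG2* (YIL045W, chrIX:271161-272777, plus strand), whose product binds synthase, had 23.0, 25.8 and 43.0 CPM in Htt103Q [V], against 72.3 and 77.5 CPM in Htt25Q [V], a log2 fold change of -1.29 (SE 0.21, edgeR adjusted p = 0.000421). *PIG1* (YLR273C, chrXII:689083-691029, minus strand), a relative of *GAC1*, had 13.5, 14.9 and 15.2 CPM in Htt103Q [V], against 10.2 and 11.6 CPM in Htt25Q [V]. Its groups were apart by less than 2 CPM, at a log2 fold change of 0.41 (SE 0.15, edgeR adjusted p = 0.0352). That call was lost without Htt103Q [V] clone b (adjusted p = 0.0737) or clone c (0.0616), and without Htt25Q [V] clone a (0.196) or clone b (0.0629). *GAC1* (YOR178C, chrXV:667860-670241, minus strand), the best known of the subunits, had 94.9, 120.1 and 175 CPM in Htt103Q [V], against 125 and 106 CPM in Htt25Q [V]. The Htt103Q [V] libraries lay on both sides of the Htt25Q [V] range, and the difference did not pass the test (log2 fold change 0.17, interval -0.26 to 0.61, edgeR adjusted p = 0.481).

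**Figure D3:**
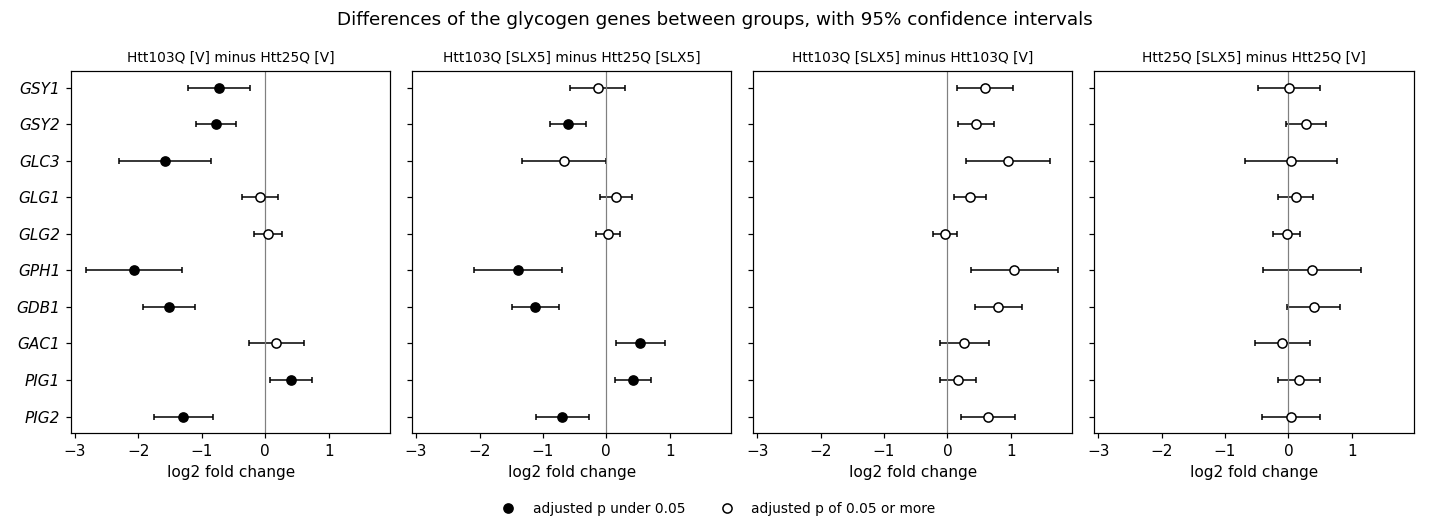
Log2 fold change (x axis) of each glycogen gene in 4 comparisons, 1 panel each, with 95% confidence intervals from edgeR's quasi-likelihood fit; filled points have an adjusted p under 0.05 over all tested genes. Filled points occur in the 2 panels of Htt103Q against Htt25Q (7 and 6 genes), and none in the 2 panels of *SLX5* against vector.

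The same pair of strains was then compared with plasmid *SLX5* in both. In Htt103Q [*SLX5*] against Htt25Q [*SLX5*], 4 of the 10 genes were lower (*GPH1*, *GDB1*, *PIG2* and *GSY2*), 2 were higher (*GAC1* and *PIG1*) and 4 did not pass the test. Of all tested genes 53.5% were called, 26.6% lower and 26.9% higher. The median log2 fold change was -0.37 for the 10 genes and -0.01 for all. The split over all genes depends on the scaling: with library totals in place of TMM, 64.9% of the called genes were higher, against 50.3% with TMM, and the median of all genes was 0.09. Under library totals the 10 genes, with a median of -0.27, still counted 4 lower and 2 higher. This comparison shares no library with the one under empty vector, and the difference between the 2 comparisons was tested only as the interaction given later.

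*GPH1* had 366, 599 and 550.0 CPM in Htt103Q [*SLX5*] clones a, b and c, against 1447, 1249.7 and 1288 CPM in Htt25Q [*SLX5*] (log2 fold change -1.40, SE 0.32, edgeR adjusted p = 0.00335). *GDB1* had 339, 446 and 432 CPM in Htt103Q [*SLX5*], against 925, 841 and 878 CPM in Htt25Q [*SLX5*] (log2 fold change -1.12, SE 0.17, edgeR adjusted p = 0.000329). Both genes of breakdown were thus separate in every library here as under the vector, but this was not particular to them. *GSY1*, *GSY2*, *GLC3*, *PIG2* and *PIG1* also had no overlap in either comparison. The share of all genes without overlap is not given for these 2 comparisons, so nothing is read from the lack of overlap. *PIG2*, with 47.7, 54.0 and 40.8 CPM in Htt103Q [*SLX5*] and 75.1, 69.6 and 86.0 CPM in Htt25Q [*SLX5*], had a log2 fold change of -0.70 (edgeR adjusted p = 0.0094). *GSY2* had 300.3, 329 and 339 CPM in Htt103Q [*SLX5*], against 493, 461 and 515 CPM in Htt25Q [*SLX5*] (log2 fold change -0.60, edgeR adjusted p = 0.00241).

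The other synthase gave a different reading. *GSY1* had 485, 526 and 523 CPM in Htt103Q [*SLX5*], against 569, 533 and 585 CPM in Htt25Q [*SLX5*], and its log2 fold change of -0.14 (interval -0.58 to 0.30, edgeR adjusted p = 0.583) did not pass the test although the ranges did not overlap. *GLC3* had 329, 479.9 and 409 CPM in Htt103Q [*SLX5*], against 674, 589 and 674 CPM in Htt25Q [*SLX5*]. Its ranges were apart too, yet the log2 fold change of -0.67 fell short of the threshold (edgeR adjusted p = 0.0796). It passed without Htt103Q [V] clone c (adjusted p = 0.00356) or clone a (0.0169), since those libraries enter the shared estimate of spread, and also with the compared groups fitted alone (0.00164) and in the likelihood ratio procedure (0.0347).

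*GAC1* had 171, 154 and 145 CPM in Htt103Q [*SLX5*], against 100.2, 103.3 and 120.2 CPM in Htt25Q [*SLX5*], and its log2 fold change was 0.54 (SE 0.18, edgeR adjusted p = 0.0235). Without Htt103Q [*SLX5*] clone a, Htt25Q [*SLX5*] clone a or Htt25Q [*SLX5*] clone b this call was lost (adjusted p = 0.0748, 0.0758 and 0.0668). *PIG1* had 18.9, 14.4 and 15.8 CPM in Htt103Q [*SLX5*], against 14.1, 11.2 and 11.4 CPM in Htt25Q [*SLX5*] (log2 fold change 0.42, edgeR adjusted p = 0.0192). That call was lost without Htt103Q [*SLX5*] clone a (adjusted p = 0.081), Htt25Q [*SLX5*] clone b (0.0726) or Htt25Q [*SLX5*] clone c (0.0713). The primers again did not pass, *GLG1* at a log2 fold change of 0.16 (edgeR adjusted p = 0.266) and *GLG2* at 0.03 (edgeR adjusted p = 0.807).

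What plasmid *SLX5* did within the Htt103Q strain was compared next. In Htt103Q [*SLX5*] against Htt103Q [V], 0 of the 10 genes passed the test in edgeR, where 0.0158% of all genes did, the 1 gene being *SLX5* itself. An unadjusted p under 0.05 was found for 7 of the 10 (against 23.2% of all genes), all with higher values in Htt103Q [*SLX5*], and their adjusted p ran from 0.117 for *GDB1* to 0.154 for *GSY1*. The log2 fold change was positive for 9 of 10 genes, against 49.6% of all genes, with a median of 0.52 against -0.00 over all genes. *GPH1* had the highest value, 1.05 (SE 0.32, interval 0.36 to 1.74, edgeR adjusted p = 0.151), followed by *GLC3* at 0.95 (adjusted p = 0.152) and *GDB1* at 0.80 (adjusted p = 0.117). Set beside each other, the Htt103Q [V] value of clone c for *GPH1* (407 CPM) lay above the lowest Htt103Q [*SLX5*] value (366 CPM), so the groups overlapped. Only *GSY2* and *GDB1* had no overlap, where 16.8% of all genes had none.

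This comparison turns on 1 library. Without Htt103Q [V] clone c, 8 of the 10 glycogen genes were higher in Htt103Q [*SLX5*] (all but *GLG2* and *PIG1*), beside 26.1% of all tested genes called in either direction, and the median log2 fold change of the 10 was 0.80. *GPH1* then stood at 1.64 (adjusted p = 0.000861) and *GLC3* at 1.498 (adjusted p = 0.00109). By other tools on all libraries, DESeq2's Wald test called 3 of the 10 higher (*GSY2*, *GDB1* and *PIG2*), where it called 4.68% of all genes. The likelihood ratio procedure of edgeR called 5 (those 3, *GLC3* and *GPH1*), where it called 4.56%. That procedure used no filter on low counts and tested first for any difference among the groups. It then adjusted p only over the 4158 genes that passed. The paper also compared pairs only within genes passing such a first test. In the quasi-likelihood test, leaving out any single library other than Htt103Q [V] clone c gave 0.

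In Htt25Q [*SLX5*] against Htt25Q [V] no glycogen gene passed the test in edgeR or had an unadjusted p under 0.05, where 0.0475% of all genes passed and 8.94% had such a p. DESeq2's Wald test and the likelihood ratio procedure also called 0 of the 10. The log2 fold changes ran from -0.10 for *GAC1* to 0.40 for *GDB1* (interval -0.02 to 0.81). *GSY2*, *GDB1* and *GPH1* did not overlap between these groups, being higher in every Htt25Q [*SLX5*] library, where 39.2% of all genes had no overlap. With 2 libraries of Htt25Q [V], intervals were wide, as that of *GPH1* from -0.40 to 1.14 shows.

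The *SLX5* difference in Htt103Q minus that in Htt25Q was tested as an interaction, and none of the 10 genes passed it in edgeR (0% of all tested genes did, while 5.51% had an unadjusted p under 0.05, none of them a glycogen gene). DESeq2's Wald test and the likelihood ratio procedure called 0 of the 10 as well. The estimates for *GLC3*, 0.91 (interval -0.07 to 1.89), and *GPH1*, 0.68 (interval -0.33 to 1.70), leave room for both no difference and a large one. Without Htt103Q [V] clone c, *GSY1* passed (0.96, adjusted p = 0.0422), 1 of 3 genes called over the whole table, and the estimates were 1.46 for *GLC3* (adjusted p = 0.0522) and 1.27 for *GPH1* (adjusted p = 0.0784).

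Against Htt25Q [V], Htt103Q [*SLX5*] showed 3 glycogen genes lower and 1 higher, where 40.6% of all genes were called. Of those called genes 48.8% were higher, against 60.7% with library totals in place of TMM, under which the count of glycogen genes was again 3 lower and 1 higher. *GPH1* was lower by a log2 fold change of -1.02 (adjusted p = 0.0332), *GDB1* of -0.72 (adjusted p = 0.0101) and *PIG2* of -0.66 (adjusted p = 0.027), and *PIG1* was higher by 0.58 (adjusted p = 0.0102). These libraries also serve in the comparisons above, and the count moved between 1 and 8 when single libraries were left out. Without Htt25Q [V] clone a or b it was 1, where 25.3% and 21.2% of all genes were called. Without Htt103Q [*SLX5*] clone a or c it was 2 (29.9% and 31.6% of all genes). It was 8 without Htt103Q [V] clone c (47.3% of all genes). Calls over the whole table thus fell and rose in the same fits.

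Levels of different genes were compared per transcript length, as TPM, the length-corrected share of each transcript. In Htt103Q [*SLX5*] *GSY1* was the most abundant of the 10 at 165 ± 5.85 TPM, before *GLC3* at 131 ± 22.1 and *GPH1* at 125 ± 28.8 (SD, n = 3). In Htt103Q [V] *GSY1* led as well, at 109 ± 44.1 TPM (SD, n = 3), followed by *GSY2* at 76.8 ± 17.9, *GLG1* at 75.0 ± 13.5, *GLC3* at 68.4 ± 39.4 and *GPH1* at 60.6 ± 35.6. Within each Htt103Q [V] library *GSY1* was the highest of the 10. The ranges of each of these genes and the next overlapped, and the order of *GSY2*, *GLG1*, *GLC3* and *GPH1* changed between libraries. In Htt25Q [*SLX5*] *GPH1* led at 303 ± 17.9 TPM (SD, n = 3), and in Htt25Q [V] at 237 ± 38.0 TPM (SD, n = 2), above *GLC3* at 189 ± 8.77 and *GSY1* at 168 ± 11.3. Neighbours in the order of Htt25Q [V] did not overlap, save *GAC1* and *PIG2*. *PIG1* was the least abundant in every group, from 5.82 ± 0.92 TPM in Htt103Q [*SLX5*] (SD, n = 3) down to 3.61 ± 0.37 TPM in Htt25Q [V] (SD, n = 2).

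**Figure D4:**
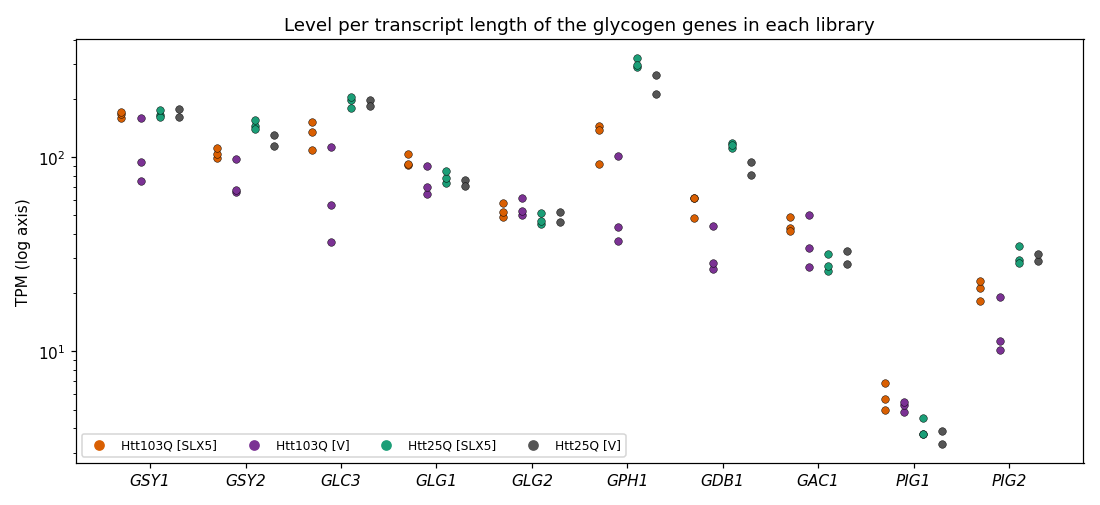
TPM (y axis, log scale) of each glycogen gene (x axis) in each of the 11 libraries, colored by group. *GPH1* is the highest gene in both Htt25Q groups (303 TPM on average in Htt25Q [*SLX5*] and 237 in Htt25Q [V]) and ranks below *GSY1* in both Htt103Q groups, and *PIG1* is the lowest throughout.

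The balance of phosphorylase to synthase transcripts followed the strain. *GPH1* over the sum of *GSY1* and *GSY2*, in TPM, was 0.357, 0.538 and 0.490 in Htt103Q [*SLX5*] clones a, b and c, against 1.05, 0.964 and 0.898 in Htt25Q [*SLX5*], and 0.261, 0.270 and 0.395 in Htt103Q [V], against 0.723 and 0.912 in Htt25Q [V]. Every Htt103Q library thus had a lower ratio than every Htt25Q library. The share of *GSY1* in the 2 synthases was 60.6 to 61.6% in Htt103Q [*SLX5*], against 53.1 to 53.5% in Htt25Q [*SLX5*], and 53.4 to 62.0% in Htt103Q [V], against 55.3 and 60.6% in Htt25Q [V]. These ratios are descriptions of the levels, with no test.

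Genes around the pathway were taken from a list of 17 that supply, control or degrade glycogen outside the 10. In Htt103Q [V] against Htt25Q [V], 10 of the 17 were lower, 2 higher and 5 did not pass, where 29.5% of all tested genes were lower and 27.3% higher. The median log2 fold change of the 17 was -0.34, against -0.02 over all genes. Of the supply of UDP-glucose, *PGM2* (phosphoglucomutase, also used in galactose metabolism) had 213, 354 and 721 CPM in Htt103Q [V], against 1626 and 1799.5 CPM in Htt25Q [V], a log2 fold change of -2.00 (SE 0.36, edgeR adjusted p = 0.000782), and *UGP1* (UDP-glucose pyrophosphorylase) had one of -1.09. *PGM1*, the minor phosphoglucomutase, did not pass. Among regulators, the kinase *PHO85* had a log2 fold change of -0.70 (edgeR adjusted p = 0.000129) and its cyclin *PCL10* of -0.50 (adjusted p = 0.000343), whereas the cyclin *PCL8*, which directs Pho85 to the same synthase, was higher by 0.52 (adjusted p = 0.000579). *IGD1*, an inhibitor of the debranching enzyme, was lower at -0.85 (adjusted p = 0.00763), and *GIP2*, the relative of *PIG2*, at -0.34 (adjusted p = 0.0211).

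The call with the smallest adjusted p among the 17 was an increase. *SGA1*, the glucoamylase that digests glycogen in sporulating cells, had 99.97, 97.1 and 77.1 CPM in Htt103Q [V], against 44.9 and 44.6 CPM in Htt25Q [V], a log2 fold change of 1.03 (SE 0.13, edgeR adjusted p = 0.000101). Under plasmid *SLX5* it had 89.0, 67.6 and 81.8 CPM in Htt103Q [*SLX5*], against 46.9, 44.6 and 42.5 CPM in Htt25Q [*SLX5*] (log2 fold change 0.83, edgeR adjusted p = 0.000171). In that second comparison 7 of the 17 were lower and 3 higher, beside 26.6% and 26.9% of all tested genes. *SGA1*, higher in Htt103Q, carries 5 AGGGG matches, as does *PGM2*, lower in Htt103Q. Of the 17, 13 hold at least 1 match. *UGP1* (4 matches) and *IGD1* (2) were lower in Htt103Q [V], *PCL8* (1) was higher, and *PGM1* (3) did not pass. *PHO85*, *PCL10* and *GIP2*, with 0 matches, were lower there too. In edgeR 0 of the 17 passed in either comparison of *SLX5* against vector, with an unadjusted p under 0.05 for 10 of them in Htt103Q (9 with higher and 1 with lower values under *SLX5*), where 23.2% of all genes had such a p, and for 0 in Htt25Q, where 8.94% had.

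Across the 11 libraries, the log2 CPM of the other genes was compared with that of *GPH1*. Within the 10, *GDB1* (r = 0.994), *GSY2* (0.989), *PIG2* (0.969), *GLC3* (0.968) and *GSY1* (0.884) followed it, and *GLG1* did so less (0.448). The values of *GAC1* (-0.192), *GLG2* (-0.424) and *PIG1* (-0.543) were negative, that of *GAC1* only weakly. Outside the 10, the genes most like it were *SCO2* (0.996), *PRM8* (0.995), *NTH1* (0.994), YJR096W (0.993) and *SPI1* (0.993). *NTH1* encodes neutral trehalase, *SCO2* a mitochondrial copper protein and *SPI1* a cell wall protein. These are Pearson correlations over libraries that fall into 2 strains, so the step between the strains enters each value.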

How the data were processed

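RNA of 11 cultures (Htt103Q or Htt25Q fragment, with *SLX5* or vector) was sequenced by the authors, who trimmed reads (Trimmomatic 0.36), aligned them to S288C EF4 (STAR 2.5.1) and estimated counts per gene (RSEM 1.2.22). One more Htt25Q [V] library, dropped by the authors for rRNA, was not analysed here. The deposited values used were expected (estimated) counts, which the authors did not normalize, and the authors' TPM values, which RSEM scales by gene length and library. Of the count values, 16.5% were not whole, and they were rounded. No source used here says whether counting used strand.

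The filter was filterByExpr with the 4 groups, the scaling TMM and the model fitted with 1 mean per group over all libraries (R 4.3.3, edgeR 4.0.16, quasi-likelihood test, Benjamini-Hochberg adjustment). The common dispersion came to 0.0121 (a variation of 11.0% between libraries). SE is the log2 fold change over the square root of F. The tests were checked on simulated data of 3 against 3 libraries, at the depths of Htt103Q [V] and Htt25Q [*SLX5*]. At a log2 change of 0.5, 64 of 100 changed genes were called, and at 1, 99 of 100. Of 6039 unchanged genes, 7 were called. No comparison of the text pairs those 2 groups, and comparisons with Htt25Q [V] have only 2 libraries on that side. In Htt103Q [V] the CPM of the 10 glycogen genes varied by 6.16% (*PIG1*) to 58.5% (*GPH1*), as SD over mean. The simulated rates therefore need not hold for each of these genes. The genes named are the 10, the 4 of the list of 17 with the smallest adjusted p in Htt103Q [V] minus Htt25Q [V] with *PGM2*, *IGD1* and *GIP2*, *SLX5*, *GAL1* and the 5 genes most like *GPH1*; *UGP1* and *PGM1* were added after their values were seen. The glycogen genes, the lists and the tests were chosen with earlier results of these data known. All 29 listed genes had the same coding length in the deposited table and in R64, so R64 coordinates and sequences were used. The labels call the libraries of a group clones a to c without saying how these were derived. For RT-PCR on the same samples the paper speaks of biological repeats, and its methods name independent libraries of each sample. The p-values measure only the spread between these samples, part of which may be technical.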

Additional observations from a re-analysis of the deposited data

How the results depend on the processing

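In Htt103Q [V] minus Htt25Q [V], *GSY2*, *GLC3*, *GDB1*, *GPH1* and *PIG2* kept their call in all 23 alternatives, while *GSY1* lost it in 5 and *PIG1* in 6. The count of glycogen genes called there ran from 5 to 7. In the fits that kept at least 2 libraries in each group, 41.1 to 60.9% of all tested genes were called. For Htt103Q [*SLX5*] minus Htt103Q [V], 0 were called in edgeR's quasi-likelihood test, 3 in DESeq2's Wald test, 5 in the likelihood ratio procedure and 0 to 8 when single libraries were left out, the 8 coming without Htt103Q [V] clone c. For Htt103Q [*SLX5*] minus Htt25Q [V], 4 were called, beside 40.6% of all tested genes. With the compared groups fitted alone the count was 7 (39.4% of all genes), and at an adjusted p under 0.01 it was 0 (22.9%). With single libraries left out of the groups of 3, it was 2 to 8 (29.9 to 47.3% of all genes). The interaction gave 0 to 1 with single libraries left out. Of the list of 17, 9 to 12 were called in Htt103Q [V] minus Htt25Q [V]. Over all genes, calls in Htt103Q [*SLX5*] minus Htt103Q [V] numbered 1, against 2 with library totals only, 3 with the replicate block, 296 with DESeq2, 302 with the likelihood ratio procedure and 1647 without Htt103Q [V] clone c, and in Htt25Q [*SLX5*] minus Htt25Q [V] 3, against 33 and 32 with those tools and 8 with the groups alone. Without the clone a libraries, 2198 were called against 3589 in Htt103Q [V] minus Htt25Q [V], 2115 against 3379 in Htt103Q [*SLX5*] minus Htt25Q [*SLX5*] and 902 against 2566 in Htt103Q [*SLX5*] minus Htt25Q [V]; the last was 1445 at an adjusted p under 0.01. Fewer samples entered the fits that leave libraries out; the cause of the other changes was not tested. Depth was least for *PIG1*, which held the lowest count of the 10 genes (199 reads in 1 library).

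Sign changes were confined, among the results and alternatives run, to log2 fold changes that did not pass the test. Without the clone a libraries, *GLG1* came to 0.076 in Htt103Q [V] minus Htt25Q [V], *GLG2* to -0.049 in Htt103Q [*SLX5*] minus Htt25Q [*SLX5*], *GLG2*, *GAC1* and *PIG1* to 0.091, 0.077 and -0.038 in Htt25Q [*SLX5*] minus Htt25Q [V], and *GAC1* to -0.058 in the interaction. With library totals only, *GSY1*, *GLC3* and *PIG2* came to -0.037, -0.0043 and -0.0057 in Htt25Q [*SLX5*] minus Htt25Q [V] and *GLG2* to 0.022 in the interaction. With the compared groups alone, *GSY1* came to -0.00024 in Htt25Q [*SLX5*] minus Htt25Q [V]. *PIG1* in the interaction came to -0.0049 with RLE size factors, -0.0070 when a mean of 10 CPM was required and -0.0043 with DESeq2. With single libraries left out, the ranges were, in Htt103Q [V] minus Htt25Q [V], -0.22 to 0.022 for *GLG1*, -0.045 to 0.14 for *GLG2* and -0.088 to 0.36 for *GAC1*. They were -0.016 to 0.078 for *GLG2* in Htt103Q [*SLX5*] minus Htt25Q [*SLX5*], -0.10 to 0.046 in Htt103Q [*SLX5*] minus Htt103Q [V] and -0.087 to 0.095 in Htt103Q [*SLX5*] minus Htt25Q [V]. In Htt25Q [*SLX5*] minus Htt25Q [V] they were -0.072 to 0.087 for *GSY1*, -0.017 to 0.10 for *GLC3*, -0.11 to 0.067 for *GLG2*, -0.21 to 0.026 for *GAC1* and -0.050 to 0.10 for *PIG2*, and in the interaction -0.11 to 0.076 for *GLG2* and -0.12 to 0.12 for *PIG1*.

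The clone letters gave no clear pairing of the samples. Over 15 pairs of the same letter, deviations from the group means correlated between -0.14 and 0.21, with 7 pairs over 0.1. Of the 11 libraries, 6 were closest to their own letter. The rRNA share did split by letter, at 1.02 to 2.40% in clone a and 0.254 to 0.958% in the others. What libraries of the same letter share was not tested. With the replicate block, 7 glycogen genes were called in Htt103Q [V] minus Htt25Q [V] (3500 of all genes, against 3589). In Htt103Q [*SLX5*] minus Htt25Q [*SLX5*] 7 were called, beside 52.6% of all genes (gaining *GLC3*, -0.68, edgeR adjusted p = 0.0468). In Htt103Q [*SLX5*] minus Htt25Q [V] 5 were called, beside 39.0% of all genes (gaining *GSY2*, -0.41, edgeR adjusted p = 0.0181). Log2 fold changes that turned sign under the replicate block were *GSY1*, *GLC3* and *PIG2* in Htt25Q [*SLX5*] minus Htt25Q [V] (-0.11, -0.12 and -0.052) and *PIG1* in the interaction (-0.0072).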
